A study of Mus musculus and Rattus norvegicus with 37 samples.

Results

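Ing4, Taf7, Timd2, 0610030E20Rik, Irf2bp2, Abtb2 and Dnaic1 are 7 genes outside the extracellular matrix that were picked by name because their RNA was higher in mouse livers after inhibition of miR-29, out of 15601 genes tested in both mouse tables. The values of this contrast therefore chose the genes, and the treated and untreated levels are given as a description, without a test. Over all 15601 genes, 67 were past the criteria and higher in both mouse tables. Of the 7 genes, 4 passed the criteria in both (Ing4, Taf7, Timd2 and 0610030E20Rik). Dnaic1 passed them in WT/Floxed mice, and Irf2bp2 and Abtb2 in those labelled L-Sirt1 KO, so the criteria for a rise in both tables were not met by every gene, while the log2 fold change was above 0 for all 7 in both. Whether a response differed between the tables was not tested, because the response itself chose the genes. In rats, 5 of the genes were analysed (Ing4, Taf7, Timd2, Irf2bp2 and Abtb2).

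RNA sequencing was done on the livers of 21 female mice and 16 male rats, all collected in the fed state. The inhibitor LNA29 combines locked nucleic acid oligonucleotides against miR-29a and against miR-29b/c, which were given under the skin at 20 mg/kg for each inhibitor, and the livers were taken on day 7. The WT/Floxed table holds 8 LNA29-treated mice (4 WT and 4 floxed) and 5 saline-treated mice (3 WT and 2 floxed), and the other mouse table holds 4 LNA29-treated and 4 saline-treated mice labelled L-Sirt1 KO. The rat tables compare 4 obese Zucker Fatty rats (ZFR, fa/fa) with 4 Zucker Lean rats (ZLR), and 4 ZFR given the compound BT2 with 4 ZFR given vehicle. All mice were on the C57BL/6J background. WT mice were 9 to 11 weeks old, and floxed mice, which carry a floxed Sirt1 allele without its deletion, were 15 to 20 weeks old, as were their L-Sirt1 KO littermates, in which Sirt1 is deleted in the liver. Genotype and age cannot be told apart between WT and floxed mice. The promoter that drives the Cre recombinase is not given in the sources used here. ZFR and ZLR were 5.5 months old. The rats given BT2 (20 mg/kg a day for 1 week, by intraperitoneal injection) or its vehicle dimethylsulfoxide were 3 months old. No rat received LNA29.

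MicroRNAs of the miR-29 family pair through their seed, bases 2 to 8, with matching sites in the 3′ untranslated region (3′ UTR) of messenger RNAs, and such pairing lowers the level or translation of the messenger. The family is best known for restraining collagens and other matrix genes, and the genes described here belong to other groups. Ing4 reads methylated histone H3 in an acetyltransferase complex, Taf7 is a subunit of the general transcription factor TFIID, and Irf2bp2 is a co-repressor that binds the transcription factor IRF2. Timd2 is a cell surface receptor for H-ferritin, Abtb2 is an ankyrin repeat and BTB domain protein, and Dnaic1 is an intermediate chain of the outer dynein arm of motile cilia.

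The mature forms of the 3 family members that LNA29 blocks share 1 seed, shown in capitals (RefSeq, GRCm38.p6), which is why a single search covers all of them.
miR-29a-3p: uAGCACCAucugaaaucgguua
miR-29b-3p: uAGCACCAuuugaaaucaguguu
miR-29c-3p: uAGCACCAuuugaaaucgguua

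The match of this seed, TGGTGCT on the sense strand of the transcript, was found in the annotated 3′ UTR of 4 of the 7 genes: Ing4, Taf7, Timd2 and 0610030E20Rik. Among all 13483 genes tested in WT/Floxed mice that have an annotated 3′ UTR, 16.3% hold it. The 8-base site TGGTGCTA, the same match followed by A, occurred in 3 of the genes (Taf7, Timd2 and 0610030E20Rik) and in 3.51% of all those genes. These 5 windows are from the GENCODE M21 transcripts of GRCm38 (mm10), with the 7-base match in capitals, where the coordinates are those of the capitals. They are shown because they are the places where the inhibited miRNAs could pair with these messengers, and a match is a description, not a measured site.
Ing4, chr6:125048674-125048680, plus strand: cttttgcctccttggtgaggtTGGTGCTgt
Timd2 8-base site, chr11:46670254-46670260, minus strand: ggatcaagggattcagttcatTGGTGCTat
Timd2 second match, chr11:46670226-46670232, minus strand: atttctactccacttctgtctTGGTGCTta
0610030E20Rik 5′-most match, chr6:72349416-72349422, plus strand: tttctgaagcttttgcctgtgTGGTGCTgt
0610030E20Rik 8-base site, chr6:72353017-72353023, plus strand: cagcgtgtcctggctatgtcaTGGTGCTaa

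The Ing4 match lies 267 bases into a 3′ UTR of 857 bases. Timd2 holds its 2 matches at positions 638 and 666 of a 3′ UTR of up to 1938 bases. 0610030E20Rik holds 3 matches, at positions 297, 3545 and 3898 of a 3′ UTR of 4029 bases. Among all genes 2.51% hold at least 2 matches and 0.497% at least 3, and the median 3′ UTR is 1154 bases long. The 8-base site of 0610030E20Rik was the single match in which the pairing with a family member ran on beyond the seed without a break, to 8 bases from base 2. In Taf7 the site is an 8-base one, at position 305 of a 3′ UTR of 1996 bases. Irf2bp2 (2817 bases), Abtb2 (1066 bases) and Dnaic1 (187 bases) had no match in their 3′ UTRs. Abtb2 held 1 match in its coding sequence, where 21.4% of all genes hold at least 1, at chr2:103566889-103566895 and with the A that makes 8 bases.
Abtb2 coding match, plus strand: cagcaccgcggggcggcctggTGGTGCTac

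**Figure D1:**
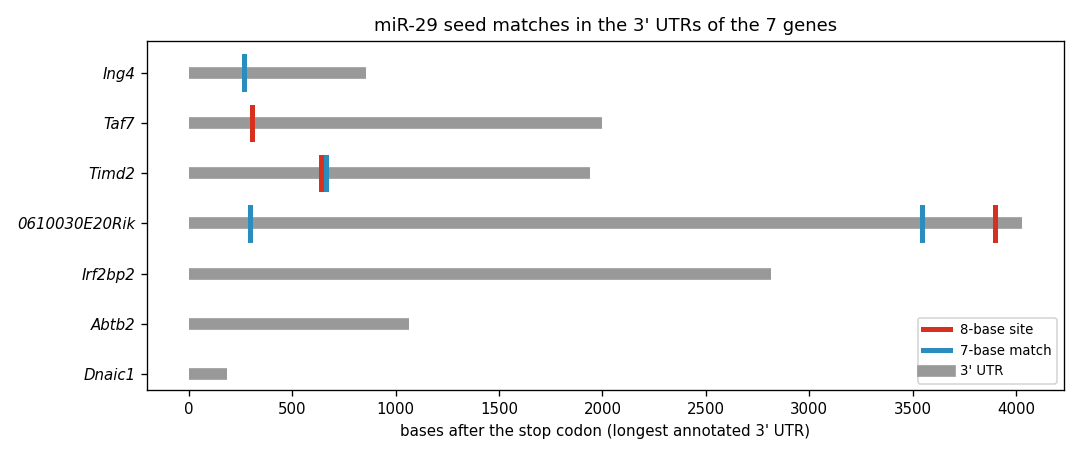
Position of miR-29 seed matches in the longest annotated 3′ UTR of each gene, with the distance from the stop codon in bases on the horizontal axis (grey bar: 3′ UTR; red: 8-base site; blue: 7-base match). Ing4 and Taf7 hold 1 match each, Timd2 2 that lie close together and 0610030E20Rik 3, and Irf2bp2, Abtb2 and Dnaic1 hold none.

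Every value that follows is a DESeq2-normalized count, that is an estimated count divided by a factor for the depth of its library, and each table was normalized on its own. To pass the criteria a gene needed a fold change above 1.2 at a mean above 50, with p under 0.05 and adjusted p under 0.2. Depth was estimated at 42.6 to 77.9 M reads in mice and at 0.185 to 57.2 M in rats, where 1 read was worth up to 10.5 normalized counts. Sirt1 counts were 534.6 to 616.5 in the libraries labelled L-Sirt1 KO and 492.7 to 699.1 in WT/Floxed livers. This check did not separate the genotypes, and a gene-level count does not show the loss of part of a gene. The paper checked hepatic Sirt1 in both genotypes by RT-qPCR, a measure that is not part of these counts. Of the hepatocyte markers, 8 of 8 were tested and none was listed at 0. No list of 8 cholangiocyte, 8 stellate cell or 7 B cell markers had a member past the criteria in either table. In bulk liver, fewer cells of a type and less RNA per cell cannot be told apart.

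With LNA29, 5 of the 7 genes were past the criteria and higher in WT/Floxed mice, where 2.42% of 15811 genes tested were higher and 1.93% lower, and 6 of the 7 in mice labelled L-Sirt1 KO, where 1.19% of 15885 were higher and 0.68% lower. All 7 genes passed the minimum mean of 10 in both tables. Since the genes were chosen on this contrast, nothing is read from these counts. The median log2 fold change over the 7 genes was 0.60 in WT/Floxed mice and 0.81 in those labelled L-Sirt1 KO, and that over all genes tested was 0.00 in both. LNA29 and saline values did not overlap for 5 of the genes in WT/Floxed mice (0.942% of all genes, higher with LNA29) and for 6 in those labelled L-Sirt1 KO (3.65%).

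**Figure D2:**
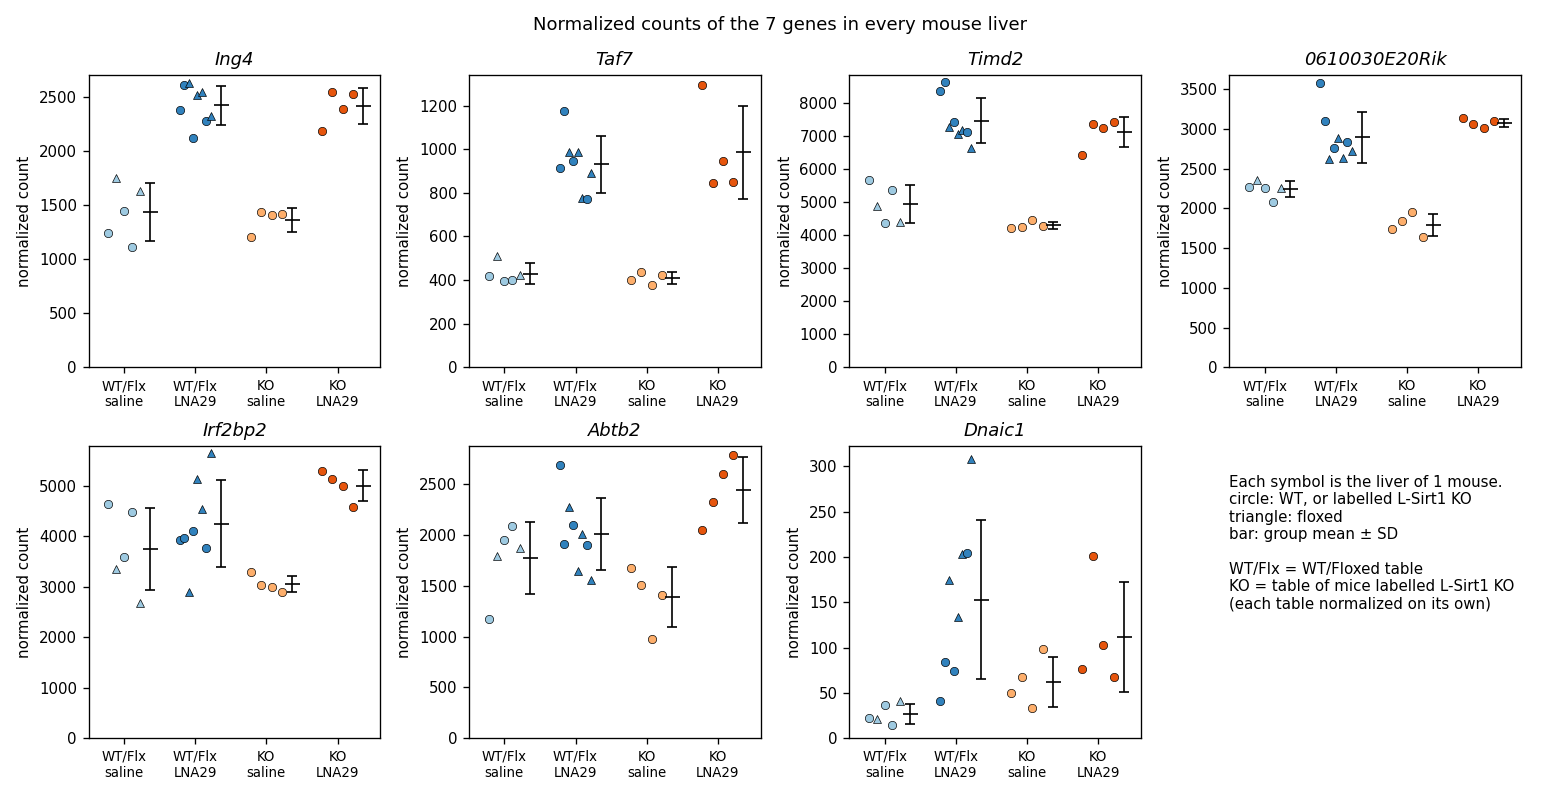
Normalized count of each gene (vertical axis, from 0) in every mouse liver of the 4 groups (circles: WT or labelled L-Sirt1 KO; triangles: floxed; bars: mean ± SD, n = 5, 8, 4 and 4 from left to right). LNA29 and saline values are apart in both tables for Ing4, Taf7, Timd2 and 0610030E20Rik, and overlap for Irf2bp2 and Abtb2 in WT/Floxed mice and for Dnaic1 in those labelled L-Sirt1 KO.

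Ing4, the histone reader, lies on chromosome 6 from 125039760 to 125049265 on the plus strand. Its counts were 1240, 1753, 1445, 1110 and 1630 in the saline-treated WT/Floxed livers and 2123 to 2630, with a median of 2447, in the 8 LNA29-treated ones. The highest saline value, from a floxed mouse, was below the lowest LNA29 value. In mice labelled L-Sirt1 KO the counts were 1203, 1433, 1408 and 1419 with saline and 2187, 2551, 2389 and 2528 with LNA29, again without overlap. The log2 fold change was 0.77 (SE 0.103) in WT/Floxed mice and 0.82 (SE 0.0925) in those labelled L-Sirt1 KO. Within each of the 3 flow cells of either table, read from a code in the sample descriptions, it was between 0.72 and 0.97. A flow cell held 2 or 3 LNA29-treated and 1 or 2 saline-treated WT/Floxed mice. For L-Sirt1 KO it held 1 or 2 mice of each treatment. Gm44597, a transcript on the same strand that overlaps Ing4 over 9450 bases, was not past the criteria (log2 fold change 0.23 and -0.23).

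Taf7, the TFIID subunit, lies on chromosome 18 from 37640491 to 37644204 on the minus strand. Its counts were 419.5, 509.8, 396.3, 400.8 and 424.7 in the saline-treated WT/Floxed livers and 769.5 to 1175, with a median of 930.7, with LNA29. Mice labelled L-Sirt1 KO had 398.5, 436.4, 376.8 and 422.9 with saline and 1295, 845.1, 947.9 and 851.6 with LNA29. In both tables every LNA29 value was above every saline value, and the 1295 of 1 mouse stood above the other LNA29-treated mice of that table. The log2 fold change was 1.11 (SE 0.106) in WT/Floxed mice and 1.25 (SE 0.144) in those labelled L-Sirt1 KO. Among the 67 genes past the criteria and higher in both tables, Taf7 had the ninth largest log2 fold change in each. The gene lies within the spans of Gm42416, Gm37013 and Gm37388 on the other strand.

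Timd2, the H-ferritin receptor, lies on chromosome 11 from 46668960 to 46707061 on the minus strand. Saline-treated WT/Floxed livers had 5675, 4890, 4375, 5362 and 4394 normalized counts, and LNA29-treated ones had 6638 to 8631, with a median of 7226. Mice labelled L-Sirt1 KO had 4216, 4250, 4447 and 4284 with saline and 6438, 7377, 7237 and 7419 with LNA29. The groups did not overlap in either table. Log2 fold changes were 0.60 (SE 0.0834) and 0.73 (SE 0.0752). Per kilobase of its longest annotated coding transcript Timd2 was the most abundant of the 7 genes in the saline-treated WT/Floxed livers, with a level of 1688 normalized counts per kilobase.

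0610030E20Rik, a gene still known by its cDNA clone name, lies on chromosome 6 from 72347317 to 72353148 on the plus strand. Its counts were 2267, 2360, 2260, 2078 and 2252 in the saline-treated WT/Floxed livers and 2619 to 3583, with a median of 2799, with LNA29. Mice labelled L-Sirt1 KO had 1738, 1842, 1949 and 1638 with saline and 3137, 3066, 3015 and 3097 with LNA29. No values overlapped in either table. The log2 fold change was 0.36 (SE 0.0773) in WT/Floxed mice and 0.78 (SE 0.0799) in those labelled L-Sirt1 KO. Gm45051, which overlaps this gene over 1142 bases on the other strand, was not past the criteria (0.50 and 0.29).

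Irf2bp2, the co-repressor, lies on chromosome 8 from 126588296 to 126593986 on the minus strand. Saline-treated WT/Floxed livers had 4642, 3349, 3581, 4481 and 2685 normalized counts and LNA29-treated ones 2888 to 5649, with a median of 4034, and these ranges overlap. In mice labelled L-Sirt1 KO the counts were 3285, 3026, 2996 and 2901 with saline and 5286, 5137, 4996 and 4575 with LNA29, which do not overlap. The log2 fold change was 0.18 (SE 0.157) in WT/Floxed mice and 0.71 (SE 0.0796) in those labelled L-Sirt1 KO. Within the WT/Floxed table the difference was -0.09 among the 4 LNA29-treated and 3 saline-treated WT mice and 0.56 among the 4 and 2 floxed mice. Gm26759 overlaps this gene on the other strand over 2693 bases.

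Abtb2, the ankyrin repeat and BTB domain protein, lies on chromosome 2 from 103566310 to 103718423 on the plus strand. Its counts were 1172, 1792, 1954, 2086 and 1872 in the saline-treated WT/Floxed livers and 1554 to 2684, with a median of 1959, with LNA29, and these ranges overlap. Mice labelled L-Sirt1 KO had 1673, 1503, 975.5 and 1408 with saline and 2048, 2327, 2596 and 2788 with LNA29, which do not overlap. Log2 fold changes were 0.19 (SE 0.147) and 0.83 (SE 0.168). Within flow cells, with 1 to 3 mice of a treatment in each, the differences ran from -0.20 to 0.65 in WT/Floxed mice. For L-Sirt1 KO they ran from 0.38 to 1.25. Without L-Sirt1 KO LNA29 replicate 2, 3 or 4 the gene no longer passed the criteria there (log2 fold change 0.85, 0.80 and 0.76), nor did it with the flow cell as a covariate (0.81).

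Dnaic1, the ciliary dynein chain, lies on chromosome 4 from 41569775 to 41638158 on the plus strand. Its level per kilobase was the lowest of the 7 genes in the saline-treated WT/Floxed livers, 10.7 normalized counts per kilobase. Counts were 21.9, 20.8, 36.2, 15 and 40.9 in those livers and 41.2 to 308.3, with a median of 154.1, with LNA29. The lowest LNA29 value, 41.22, and the highest saline value, 40.91, nearly touched. Mice labelled L-Sirt1 KO had 50.2, 67.9, 32.8 and 98.1 with saline and 76.7, 200.7, 102.6 and 67.6 with LNA29, and these values overlap. Dnaic1 stood above the mean limit of 50 in WT/Floxed mice through the LNA29 group, with a mean of 153 against 27.0 with saline. On the log2 scale the difference was 2.31 (SE 0.42) in WT/Floxed mice and 0.81 (SE 0.40) in those labelled L-Sirt1 KO. Within WT mice alone the difference was 1.86 and within floxed mice alone 2.70. The last 15 bases of Dnaic1 overlap Enho on the other strand, and Enho, which encodes the secreted peptide adropin, was past the criteria too (log2 fold change 0.91, adjusted p = 0.0195 by limma, and 0.83, adjusted p = 0.0814). The part of reads from Enho in the Dnaic1 count was not tested.

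**Figure D3:**
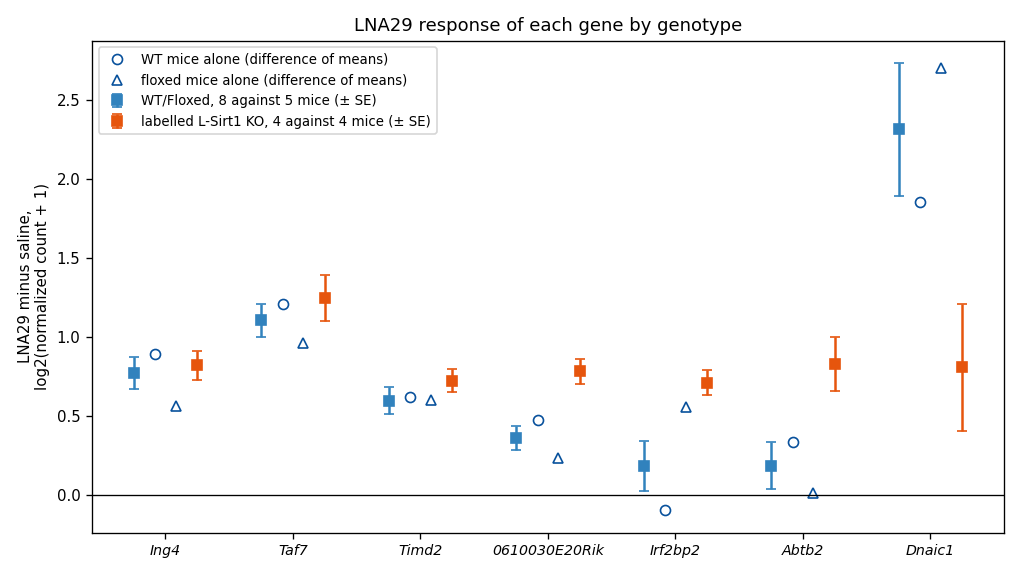
LNA29 response of each gene on the log2(normalized count + 1) scale (vertical axis) in WT/Floxed mice (blue squares ± SE), in the WT and floxed mice of that table alone (open symbols) and in the mice labelled L-Sirt1 KO (orange squares ± SE). The genes were chosen on this contrast, so their distance from 0 is a description. The responses of Ing4 (0.77 and 0.82), Taf7 (1.11 and 1.25) and Timd2 (0.60 and 0.73) are positive in both tables. Those of Irf2bp2 and Abtb2 lie at 0.18 and 0.19 in WT/Floxed mice. Dnaic1 has the widest error bars, with SEs of 0.42 and 0.40.

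With the WT/Floxed table split by background, every gene but Irf2bp2 had a positive difference in both. The differences in WT and in floxed mice were 0.90 and 0.56 for Ing4, 1.21 and 0.96 for Taf7, 0.62 and 0.60 for Timd2, 0.47 and 0.24 for 0610030E20Rik, and 0.34 and 0.01 for Abtb2. Ordered by the level per kilobase in the saline-treated WT/Floxed livers, Timd2 was followed by Ing4 (881), Irf2bp2 (738), 0610030E20Rik (487), Abtb2 (389), Taf7 (130) and Dnaic1. Neighbours in this order whose ranges overlap were Ing4 with Irf2bp2 and 0610030E20Rik with Abtb2.

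Markers of other liver cells are given beside these values. The 8 markers of cholangiocytes, the bile duct cells, were all positive in WT/Floxed mice, with a median log2 fold change of 0.29. Their summed counts were 4216 to 7393 with LNA29 and 3696 to 5062 with saline. For L-Sirt1 KO the sums were 4411 to 8555 and 4598 to 7742, and 0 of the 8 passed the criteria in either table. The 7 markers of B cells, which express Timd2 in mice, had medians of -0.31 and -0.02. Of 8 Kupffer cell and macrophage markers 0 passed in WT/Floxed mice (median -0.43). For L-Sirt1 KO 2, Clec4f (-0.29) and Vsig4 (-0.54), were lower past the criteria (median over the 8 -0.34). The summed counts there were 14790 to 18420 with LNA29 and 18600 to 22100 with saline. In WT/Floxed mice they were 8431 to 44020 and 15410 to 26130, which overlap. Marco was the 1 positive marker in each table (0.46 and 0.71) and was not past the criteria. Of 8 sinusoidal endothelial markers 1, Lyve1, was lower in each table (-0.51 and -1.17), and of 8 hepatocyte markers 1, Apoa1 (0.51), was higher and 1, Tat (-0.48), lower in WT/Floxed mice and 0 passed for L-Sirt1 KO. The part of these cells in the values of the 7 genes was not tested.

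Whether the working partners of these genes moved was asked with 6 lists of 62 related genes, of which 52 were tested in each mouse table. In WT/Floxed mice 1 related gene was higher and 1 was lower past the criteria, 3.85% of those tested, where 4.35% of all genes were called in either direction, and 8 of the 52 had an unadjusted p under 0.05, as did 13.3% of all genes. For L-Sirt1 KO 0 of 52 were called by limma, where 1.87% of all genes were, and 4 had an unadjusted p under 0.05, as did 11.2% of all genes. Of the 52, 8 (15.4%) hold a 7-base miR-29 match in the 3′ UTR and none holds an 8-base site.

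Among the 12 relatives and complex partners of Ing4 (the ING family and the HBO1 histone acetyltransferase complex), log2 fold changes ran from -0.35 to 0.24 in WT/Floxed mice and from -0.49 to 0.16 in those labelled L-Sirt1 KO, and none passed the criteria. Of 15 TFIID subunits tested beside Taf7, Taf13 rose in WT/Floxed mice by 0.29 on the log2 scale (SE 0.0866, adjusted p = 0.139 by limma). Its value in mice labelled L-Sirt1 KO was 0.29 (adjusted p = 0.513). The call was lost in 9 of 13 fits that left out 1 mouse, where the adjusted p ran from 0.0509 to 0.249. The median over the TFIID subunits was 0.05 and -0.01. Taf9, named here after its values were seen because it lies far from the rest, had 1.34 (adjusted p = 0.326) and -1.16 (adjusted p = 0.595).

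Of 6 genes tested among Timd2 relatives and ferritin handling genes, Ftl1, the ferritin light chain, fell in WT/Floxed mice by 0.34 on the log2 scale (SE 0.0996, adjusted p = 0.127 by limma). In mice labelled L-Sirt1 KO its value was -0.39 (adjusted p = 0.263). The call held in 8 of 13 fits without 1 mouse, and over all 13 the adjusted p ran from 0.0659 to 0.242. Ferritin genes have near-identical copies between which counting could split reads, and this was not tested. The 4 partners of Irf2bp2 ran from -0.18 to 0.19 in WT/Floxed mice and the 4 relatives of Abtb2 from -0.11 to 0.15, with none past the criteria in either table. Of 17 axonemal dynein and assembly genes 11 had enough counts to be tested beside Dnaic1, and none passed the criteria, with medians of 0.09 and 0.12. Foxj1, the master regulator of motile cilia and named here after its values were seen, had 0.17 (adjusted p = 0.820) and -0.27 (adjusted p = 0.841).

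**Figure D4:**
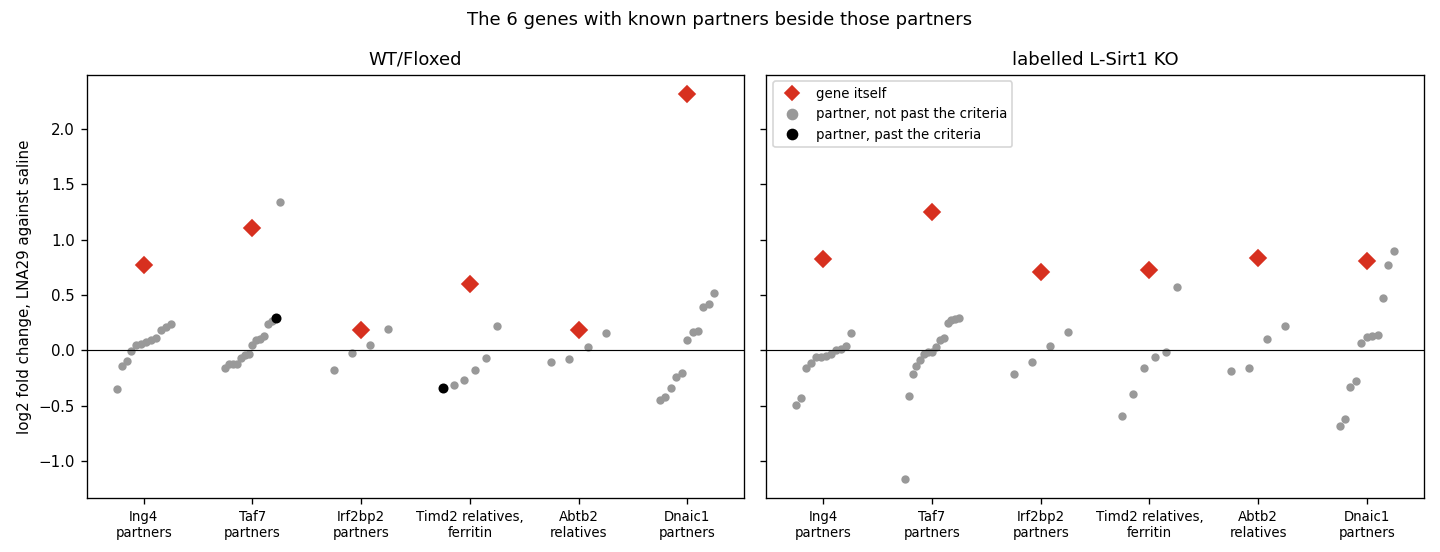
Log2 fold change with LNA29 (vertical axis) of the related genes of 6 lists (circles, black where past the criteria) and of the gene each list belongs to (red diamonds), in WT/Floxed mice (left) and in those labelled L-Sirt1 KO (right). Black circles appear only on the left, for Taf13 and Ftl1, and the far circles of the TFIID list are Taf9.

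The contrasts that follow did not choose the genes and were tested. That of floxed with WT mice uses livers in which the genes were chosen, so it is not independent of that choice. The rat contrasts use other animals. Floxed mice were compared with WT mice with treatment as a covariate, and 0 of the 7 genes were called at an adjusted p under 0.05, where 5.66% of all genes were (2.62% higher and 3.04% lower in floxed mice), and 3 of the 7 had an unadjusted p under 0.05, as did 25.4% of all genes. The values nearest to a call were those of Ing4, 0.22 higher in floxed mice (95% interval 0.04 to 0.40, adjusted p = 0.123 by limma), Dnaic1, 0.87 (0.11 to 1.63, adjusted p = 0.145), and Timd2, -0.15 (-0.31 to -0.00, adjusted p = 0.194). Two-sided exact permutation tests within treatment, made for all 7 genes and not adjusted, gave p = 0.0314 for Ing4, 0.0557 for Timd2 and 0.0557 for Dnaic1, and 0.2786 or more for the others. Ing4 counts were 1753 and 1630 in the saline-treated floxed mice, above the 1240, 1445 and 1110 of the WT mice given saline. With LNA29 they ran from 2323 to 2630 in floxed and from 2123 to 2614 in WT mice, which overlap. Dnaic1 had a mean of 204.9 ± 74.6 (SD, n = 4) in LNA29-treated floxed mice and of 101.1 ± 71.1 (SD, n = 4) in LNA29-treated WT mice. With saline its counts ran from 20.8 to 40.9 in floxed and from 15 to 36.2 in WT mice, which overlap too. The other 4 genes had adjusted p-values of 0.512 or more.

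In rats the values rest on far fewer reads, and 0 of the 4 genes tested (Ing4, Timd2, Irf2bp2 and Abtb2) were called by limma in either comparison, with 1 (Abtb2, ZFR against ZLR) and 0 of the 4 at an unadjusted p under 0.05. ZFR and ZLR differed at an adjusted p under 0.05 in 4.25% of 8633 genes tested (1.8% higher and 2.46% lower in ZFR), and 16.6% had an unadjusted p under 0.05. ZFR given BT2 and ZFR given vehicle differed in 0% of 8405 genes by limma, with 332 genes (3.95%) at an unadjusted p under 0.05. 0610030E20Rik and Dnaic1 were not analysed in rats here under those names. Dnai1, a synonym of Dnaic1 looked up after the values were seen, had 0 to 1.56 normalized counts over all rats.

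Abtb2 came nearest to a call. Its counts were 59.4, 59.9, 73.5 and 95.2 in ZLR and 43.1, 28.15, 29.6 and 46.5 in ZFR, and every ZFR value was below every ZLR value. The log2 fold change was -0.95 (SE 0.238, 95% interval -1.49 to -0.42, adjusted p = 0.0579 by limma). A two-sided exact permutation test, made for 5 genes and not adjusted, gave p = 0.0286, the smallest that 4 rats against 4 allow, and 0.1714 or more for the other 4 genes. The ZLR values of 73.5 and 95.2 come from the shallowest libraries of that table, at 6.98 and 9.12 estimated reads of Abtb2. Without libraries of under 0.5 M estimated reads, an alternative added after the data were seen, the log2 fold change was -0.71 (adjusted p = 0.128), and within the 2 flow cells it was -1.15 and -0.76. With BT2 the counts were 56.8, 43.9, 45.4 and 108.4 against 46.8, 65.2, 36.6 and 20.9 with vehicle, which overlap (log2 fold change 0.58, adjusted p = 0.898, and 0.01 without the libraries under 0.5 M estimated reads).

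Ing4 had 42.8, 44.3, 42.1 and 31.3 counts in ZLR and 35.0, 42.4, 31.3 and 35.8 in ZFR, a log2 fold change of -0.14 (95% interval -0.59 to 0.30, adjusted p = 0.732). With BT2 it had 35.6, 40.05, 50.9 and 43.5 and with vehicle 37.2, 34.25, 28.4 and 30.97, a log2 fold change of 0.36 (adjusted p = 0.898, exact permutation p = 0.0571), and the groups overlapped by 1 rat. Timd2 had 470.7, 476.9, 463.5 and 532.6 in ZLR and 629.0, 474.2, 614.2 and 462.0 in ZFR, a log2 fold change of 0.15 (95% interval -0.13 to 0.44, adjusted p = 0.570). Its counts were 701.0, 823.6, 492.7 and 652.6 with BT2 and 539.1, 537.3, 524.4 and 650.5 with vehicle (0.23, adjusted p = 0.898). These groups overlap too.

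Irf2bp2 had 129.1, 90.3, 147.5 and 83.5 counts in ZLR and 105.4, 61.2, 83.6 and 82.4 in ZFR, a log2 fold change of -0.42 (95% interval -0.93 to 0.10, adjusted p = 0.405). With BT2 it had 99.6, 93.4, 56.2 and 114.2 and with vehicle 124.9, 128.7, 48.6 and 103.2 (-0.11, adjusted p = 0.965). Taf7 stayed under the minimum mean of 10 and was not tested by limma. It ranged from 0 to 17.4 counts, and the 3 libraries at 0 hold so few reads that a count of 0 allows up to 3 reads, or 31.2, 30.9 and 10.7 normalized counts. The exact permutation p was 0.6571 for ZFR against ZLR and 0.4857 for BT2 against vehicle.

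**Figure D5:**
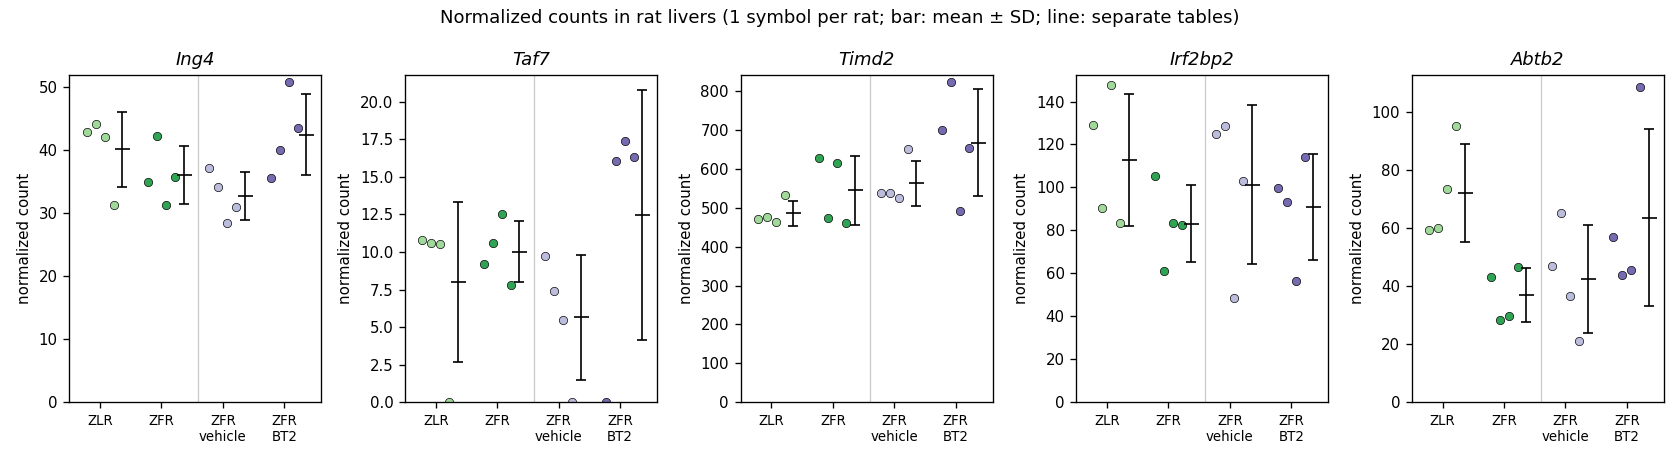
Normalized count (vertical axis, from 0) of the 5 genes analysed in rats, with 1 symbol per rat, bars for the mean ± SD (n = 4) and a vertical line between the separately normalized tables. The 4 ZFR values of Abtb2 lie below the 4 ZLR values, and all other pairs of groups overlap.

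Beyond the group differences, the genes varied from mouse to mouse, and the likeness of that variation was measured as Pearson's r over the 21 mice after the mean of each group was taken off, across 15601 genes. These values are a description of the closest of many genes. Irf2bp2 was closest to Igfbp1 (r = 0.805), a secreted binding protein of insulin-like growth factors, and to G6pc (r = 0.751), the glucose-6-phosphatase of glucose release. Ing4 was closest to Map3k21 (0.883) and C030034I22Rik (0.867), and Timd2 to Crcp (0.841) and F13b (0.833). Abtb2 was closest to Kcnh7 (0.834) and Enkd1 (0.823), Dnaic1 to Pkp2 (0.808) and Gm6166 (0.808), 0610030E20Rik to Polr3gl (0.791) and Ttll13 (0.774), and Taf7 to Nuak2 (0.740) and Mgme1 (0.738). The difference between WT and floxed mice, which goes with their age, remains in these values. With the means of WT and floxed mice taken off separately, a measure added after the data were seen, the same pairs ran from 0.671 to 0.862. By the first measure the 21 pairs among the 7 genes themselves ran from -0.622 to 0.387 (-0.52 to 0.332 by the second), and none of the genes named as closest was another of the 7.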

How the data were processed

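The deposited values are a signal, the DESeq2-normalized counts of 4 tables (21 mouse and 16 rat livers) that the authors made by alignment with STAR to mm10 or rn6, quantification with Salmon and DESeq2 scaling within each table. The strand setting is not given in the sources used here. The authors left out 1 floxed saline-treated mouse before deposit. Whole reads could not be recovered, so no count model was run, and depth was estimated as the sum of a library divided by its most frequent value above 0. Entries with no name (381 in mice and 201 in rats, at most 0.0461% of the signal) or a repeated name were left out, and 0 columns were unmatched.

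The 7 genes, the related lists and the markers were chosen with earlier results of these data known. Tests used limma 3.58.1 (lmFit, eBayes with trend) in R 4.3.3 on log2(normalized count + 1) over genes with a mean of at least 10, with Benjamini-Hochberg adjustment over all of them, and fold changes are on that scale. In the mouse LNA29 comparisons a call needed p under 0.05, adjusted p under 0.2, mean above 50 and fold change above 1.2, and elsewhere an adjusted p under 0.05. For single genes an exact permutation test (two-sided) was added in the contrasts that did not choose them. Named are the 7 genes, related genes past the criteria, the 2 genes nearest to each in likeness, overlapping genes and Sirt1. Sites were searched in GENCODE M21 transcripts with Python 3.11.15, and 3 of 3 miRNAs and 7 of 7 genes matched by name. The fits were tested on simulated data. Tried in place of these settings were TMM scaling, a pseudocount of 10, no minimum mean, sample quality weights, flow cell, replicate number or WT and floxed background in the model, an adjusted p under 0.05, and each library left out. For rats, leaving out libraries under 0.5 M reads was added after the data were seen. Limits for a count of 0 are 3 reads and cover counting error only.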

Additional observations from a re-analysis of the deposited data

Results flagged for a closer look

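In groups of 4 to 10 animals, the animal farthest from the rest was compared with the range of its group. Of 48 groups of the 7 genes examined 6 had such a value, and chance gives about 1 in 20. Ing4 had 1203 normalized counts in L-Sirt1 KO saline replicate 1, below the other saline-treated mice of that table, and 31.33 in ZLR replicate 4. Taf7 had 509.8 in WT/Floxed saline replicate 2, a floxed mouse above the other saline-treated mice. Taf7 was at 0 in ZFR BT2 replicate 1 and in ZLR replicate 4. Timd2 had 650.5 in ZFR vehicle replicate 4. ZLR replicate 4 and ZFR vehicle replicate 4 were estimated at 0.186 and 0.189 M reads and ZFR BT2 replicate 1 at 0.558 M.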

How the results depend on the processing

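In WT/Floxed mice the number of the 7 genes past the criteria was 4 or 5 under 8 alternatives and 5 in all 13 fits without 1 mouse, and in mice labelled L-Sirt1 KO it was 5 or 6 under 7 alternatives and in 8 such fits. The replicate numbers were not taken as pairs of animals. At most 1 pair of a comparison had a correlation of deviations over 0.1 (-0.281 to 0.241 over the 5 WT/Floxed pairs), and so few pairs cannot exclude a pairing. In WT/Floxed mice the numbers 2 and 3 each join a WT with a floxed mouse. With the replicate number as a block, 0610030E20Rik in WT/Floxed mice and Abtb2 in mice labelled L-Sirt1 KO no longer passed, the number of related genes called in WT/Floxed mice was 0, and the floxed against WT difference of Abtb2 turned to 0.063. Abtb2 in mice labelled L-Sirt1 KO also failed with the flow cell as a covariate and at an adjusted p under 0.05, so that it passed under 4 of 7 alternatives. The number of related genes called in WT/Floxed mice, 2 in the report, was also 0 without a minimum mean and with an adjusted p under 0.05. It was 4 with the background as a covariate, and 0 to 3 without 1 mouse (0 without LNA29 replicate 8 or saline replicate 2, and 1 without LNA29 replicate 2, 5, 6 or 7 or saline replicate 4 or 5). In mice labelled L-Sirt1 KO the number of related genes called was 1 with sample quality weights and 0 to 1 without 1 mouse (1 without saline replicate 1). In ZFR against ZLR, 1 gene, Abtb2, was called with a pseudocount of 10 (-0.81, adjusted p = 0.0478) and with sample quality weights (-0.61, adjusted p = 0.0235), and 0 in each fit without 1 rat (adjusted p of Abtb2 0.0681 to 0.164). The cause was not tested. Small differences changed sign without 1 animal: Irf2bp2 (-0.17 to 0.030) and Taf7 (-0.021 to 0.11) in floxed against WT mice, and Irf2bp2 with BT2 (-0.42 to 0.10). The BT2 value of Abtb2 was 0.01 without the shallow libraries. The number of genes with a seed match was 3 with the 8-base site and 5 with a 6-base match. In rats Taf7 was under the minimum mean for limma, and its exact tests rest on libraries of 0 to 285 estimated reads of the gene.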

Other observations

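Of the related genes, 4 were called in a contrast other than that of LNA29, a share of those tested that lay near the share over all genes. Tfrc, the transferrin receptor of iron uptake, was higher in ZFR than in ZLR by 1.54 on the log2 scale (adjusted p = 0.0051 by limma), and Ttc25, a docking factor of ciliary dynein arms, by 1.97 (adjusted p = 0.0107), 2 of 34 related genes tested there (5.88%, against 4.25% of all genes). In ZLR replicates 3 and 4, 1 read was worth 10.5 and 10.4 normalized counts. No value without these shallow libraries is given for Tfrc or Ttc25. In floxed against WT mice, with LNA29 or saline as a covariate, Abtb1, a relative of Abtb2, was lower by a log2 difference of -0.32 (adjusted p = 0.0250) and the dynein heavy chain gene Dnah5 by -1.22 (adjusted p = 0.0304), 2 of 52 (3.85%, against 5.66% of all genes). Dnah5 had a mean of only 15.8 normalized counts, near the minimum of 10.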
